A study of Mus musculus with 12 samples.

Results

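Ribosome biogenesis is the assembly of ribosomes from ribosomal RNA and ribosomal proteins. This account covers 44 genes for its machinery, taken by gene symbol from a list of RNA polymerase I factors, small nucleolar ribonucleoprotein (snoRNP) proteins and ribosome assembly factors. All 44 were found among the 18771 genes of the deposited table, and all 44 passed the filter on low counts. RNA came from left-ventricular cardiac fibroblasts of mice with a 3-day-old myocardial infarct, for which the left anterior descending artery had been tied off permanently. The study asked what Pfas, an enzyme gene of de novo purine synthesis, does in these cells in vivo.

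Pfas CKO mice (6 libraries) were PDGFRa CreER/+;Pfas fl/fl and were given tamoxifen on days 7 and 3 ahead of the infarct and again on day 1 afterwards. Control mice (6 libraries) were PDGFRa CreER/+;Pfas fl/+, so both genotypes share the inducible Cre at Pdgfra, a gene expressed by fibroblasts, and at least 1 floxed Pfas allele. The labels state tamoxifen for Pfas CKO mice only, so an effect of tamoxifen and of genotype cannot be told apart. The labels used here state no age. No label ties libraries to separate mice, so p-values measure the spread between libraries, which may be technical.

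Ribosome assembly starts in the nucleolus. RNA polymerase I transcribes a long precursor RNA there, snoRNPs guide its chemical modification and cutting, and large sets of assembly factors fold the precursor into the small (40S) and large (60S) subunits before both are exported. Growing cells spend much of their energy on this process, and its purine nucleotides come in part from the pathway to which Pfas belongs. In the heart, fibroblasts that have been activated by injury enlarge, divide and secrete matrix.

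Each library held 20320133 to 20950074 estimated counts. Pfas CKO 1, 3, 5 and 6, control 1 to 3 and control 4 to 6 were near-identical sets, with a mean chi-square per gene of 1.68 to 5.22 within a set, against 17.5 to 39.9 between sets of one group. The remaining Pfas CKO libraries, 2 and 4, differed from that set and from each other. Pfas itself had 8.01, 9.43 and 17.4 CPM (counts relative to library size, scaled by the trimmed mean of M values, TMM) as the lowest, median and highest level in Pfas CKO, against 22.4, 23.1 and 24.9 CPM in control (log2 fold change -1.05 ± 0.156, SE; edgeR adjusted p = 2.26e-05). Libraries 2 and 4 had the most Pfas of the Pfas CKO libraries, at 17.4 and 14.5 CPM, where the other 4 had 8.01 to 9.66 CPM. Without them the log2 fold change was -1.40. Pdgfra, the Cre locus and 1 of the 12 fibroblast markers, had the same library pattern. It had 158 and 159 CPM in Pfas CKO 2 and 4 and 100 to 105 CPM in the other 4. In control it had 200 to 221 CPM (log2 fold change -0.79, edgeR adjusted p = 2.14e-05). Why both genes had this pattern was not tested. The 12 fibroblast markers summed to 15673 to 17666 CPM in Pfas CKO and 18404 to 21443 CPM in control, with 7 higher and 5 lower. The 16 macrophage markers summed to 7546 to 9241 CPM in Pfas CKO and 6461 to 7094 CPM in control, with 8 higher and 5 lower. Much of that difference came from Cd14, with 1355 to 1743 CPM in Pfas CKO and 334 to 421 CPM in control. Mertk and Adgre1 were among the lower markers, at log2 fold changes of -1.40 and -0.21. Neither the fibroblast sums nor the macrophage sums overlapped between the groups. No marker of either list was at 0 in all libraries. Erythrocyte markers (5 in the table, 5 higher) summed to 129 to 211 CPM in Pfas CKO and 8.60 to 9.51 CPM in control, and cardiomyocyte markers (10 of 11 tested higher, 0 lower) to 53.1 to 66.7 CPM in Pfas CKO and 22.2 to 24.1 CPM in control. Endothelial markers (8 of 10 higher, 2 lower) summed to 880 to 1107 CPM in Pfas CKO and 798 to 847 CPM in control. The erythrocyte, cardiomyocyte and endothelial sums did not overlap between the groups either. Neutrophil markers (3 of 6 tested higher, 2 lower) summed to 136 to 236 CPM in Pfas CKO and 234 to 259 CPM in control, and lymphocyte markers (2 of 5 tested higher, 1 lower) to 6.68 to 10.3 CPM in Pfas CKO and 7.70 to 10.3 CPM in control.

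The promoters of some of these genes carry the letters CACGTG, the core E-box that is bound by Myc and related factors in mammals. RefSeq promoters on GRCm38.p6, 250 bases before to 50 after a start, were matched for 38 of the 44 genes. CACGTG (its own reverse complement, so both strands are covered) was found in 10 of these 38 genes, 26.3%, against 8.1% of the 27025 genes with a promoter in the table. An NRF1-type motif was found on either strand in 8 of 38, 21.1%, against 5.2% of all genes. Both background shares include genes that were not tested here for expression, and the shares among the genes tested were not computed. The CACGTG sites are shown because Myc and its relatives are known regulators of ribosome biogenesis genes. Each line gives 30 bases of the gene's own strand, 5′ to 3′, with CACGTG in capitals.
Utp4, chr8:106893643-106893672, plus strand: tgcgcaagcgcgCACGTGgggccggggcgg
Wdr43, chr17:71616220-71616249, plus strand: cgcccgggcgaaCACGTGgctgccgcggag
Ltv1, chr10:13193092-13193121, minus strand: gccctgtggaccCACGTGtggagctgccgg
Rrn3, upstream site, chr16:13780639-13780668, plus strand: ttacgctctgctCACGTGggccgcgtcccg
Rrn3, far site, chr16:13780472-13780501, plus strand: gagcgccaaggtCACGTGcacacgcctcta
Utp20, chr10:88826765-88826794, minus strand: cccagcggcactaactaCACGTGaggaaaa
Pes1, chr11:3963965-3963994, plus strand: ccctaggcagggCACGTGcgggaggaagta
Mybbp1a, chr11:72441347-72441376, plus strand: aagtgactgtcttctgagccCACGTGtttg
Nop2, chr6:125131811-125131840, plus strand: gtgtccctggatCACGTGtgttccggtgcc
Pno1, chr11:17211540-17211569, minus strand: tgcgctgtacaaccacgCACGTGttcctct
Tsr1, chr11:74898092-74898121, plus strand: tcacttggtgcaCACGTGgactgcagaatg

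Of the 11 sites, 8 lay 2 to 40 bases downstream of the annotated start. The genes with a site did not share a direction in the expression data described next. Utp4, Wdr43 and Ltv1 were higher in Pfas CKO, Rrn3, Utp20, Pes1, Mybbp1a and Nop2 were lower, and Pno1 and Tsr1 passed in neither direction. Counted by call, CACGTG was present in 3 of the 12 matched genes that were higher, in 5 of the 14 that were lower and in 2 of the 12 that did not pass. Such a match describes the letters only.

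The ribosome biogenesis genes were split in Pfas CKO. By the edgeR quasi-likelihood test with Benjamini-Hochberg adjustment over all 13600 genes tested (threshold 0.05), 14 of the 44 were higher in Pfas CKO, 17 were lower and 13 did not pass. The share of all genes tested that were called was 68.6%, with 33.4% higher and 35.2% lower, and the 44 genes lay near it at 70.5%, 31.8% and 38.6%. Their median log2 fold change was -0.05, against -0.024 for all genes tested, and the changes ran from -0.92 for Heatr1 to 0.55 for Rrs1. Sizes were modest. Of the 44 genes, 4 were called with a log2 fold change of at least 0.5 in size (Heatr1, Rrp12, Rrs1 and Gnl3), where 37.3% of all genes tested were. The median size of change was 0.239 on the log2 scale, against 0.379 over all genes tested.

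**Figure D1:**
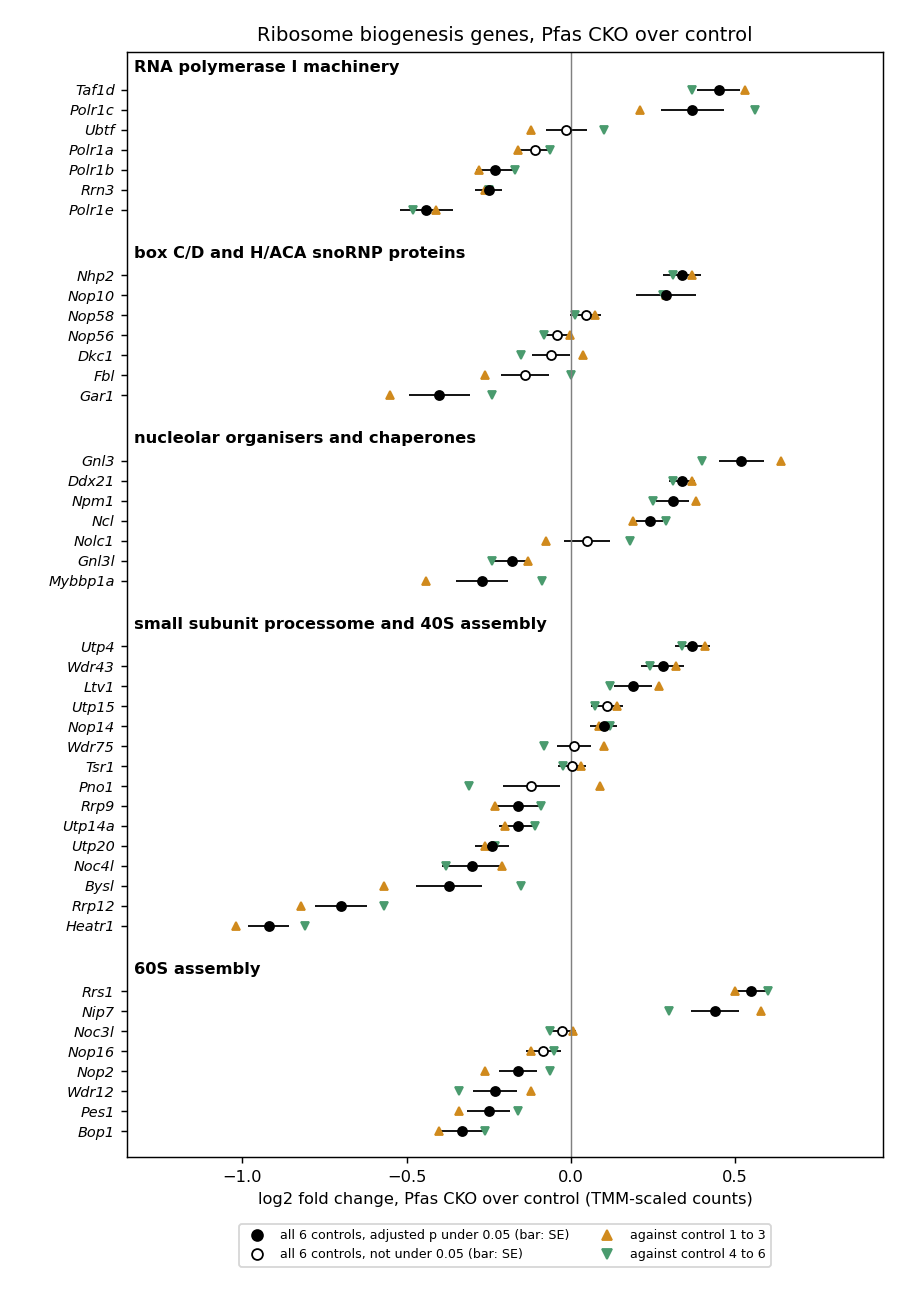
Log2 fold change of each of the 44 genes (x axis, TMM-scaled counts, Pfas CKO over control), grouped by role. Circles are the comparison with all 6 control libraries (bars are SE; filled circles have an edgeR adjusted p under 0.05), and triangles compare the same Pfas CKO libraries with control 1 to 3 (up) or control 4 to 6 (down). Rises and falls occur in each role, with Heatr1 at -0.92 and Rrs1 at 0.55 as the ends of the range.

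Levels, compared between genes as TPM (transcript abundance corrected for length), were led by the nucleolar chaperone gene Npm1. Npm1 averaged 1107 ± 54.6 TPM in Pfas CKO and 1089 ± 34.8 TPM in control (SD, n = 6 each). Ncl, which encodes the nucleolar RNA-binding protein nucleolin, averaged 268 ± 6.70 TPM in Pfas CKO and 276 ± 18.9 TPM in control. Both genes together made up 35.0% of the summed TPM of the 44 genes in Pfas CKO and 31.0% in control. At the low end stood Polr1e, with 5.98 ± 0.709 TPM in Pfas CKO and 9.96 ± 0.267 TPM in control. The order of the 44 genes by mean TPM was nearly the same in both groups (Spearman rho 0.955 over 44 genes, a description). Their summed TPM was 3897 to 3962 in Pfas CKO (median 3931) and 4258 to 4560 in control (median 4418), and these ranges did not overlap.

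How the calls split depended on the scale. With library totals alone in place of TMM, the median of all genes moved to -0.26, that of the 44 genes to -0.28, and 6 were called higher and 31 lower (73.4% of all genes tested were called). On log2(TPM + 1), tested with limma, the medians were -0.28 over 12426 genes and -0.33 over the 44, and 4 were called higher and 31 lower (76.9% of all genes tested were called). The share of all genes called lower was then 53.0% with library totals and 58.6% on log2(TPM + 1). The 44 genes moved with the rest of the table on each scale. Of the 14 genes higher with TMM, 6 kept the call with library totals (Taf1d, Gnl3, Ddx21, Utp4, Rrs1 and Nip7) and 4 on log2(TPM + 1) (Taf1d, Gnl3, Rrs1 and Nip7), while the 17 lower genes kept it on both. The 13 genes that did not pass with TMM were called lower on both of these scales. Directions given here are relative to TMM scaling, which puts the median of all genes close to 0.

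**Figure D2:**
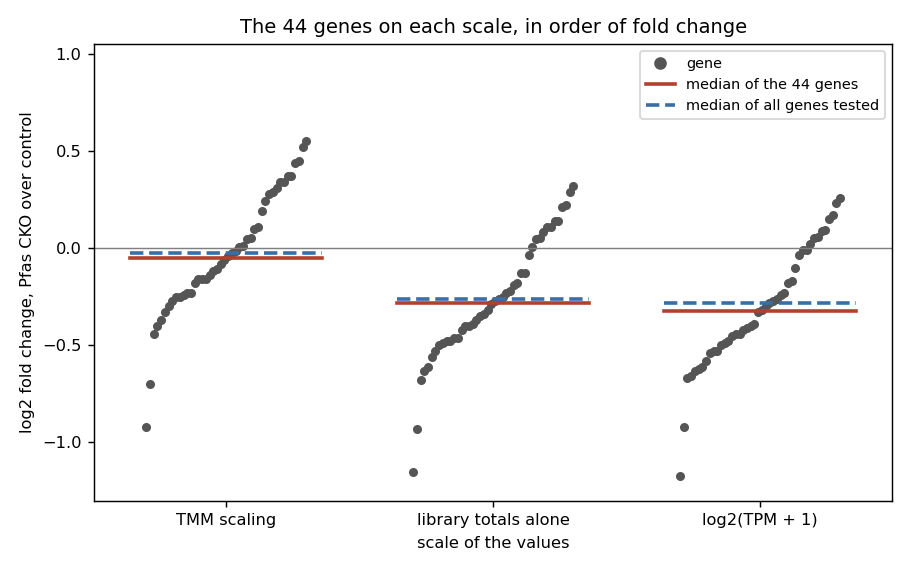
Log2 fold change (y axis, Pfas CKO over control) of the 44 genes on 3 scales (x axis), each point a gene, ordered by its value. The solid line is the median of the 44 genes and the dashed line the median of all genes tested. Both medians lie near 0 with TMM scaling (-0.05 and -0.024), at -0.28 and -0.26 with library totals alone and at -0.33 and -0.28 on log2(TPM + 1).

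Among the genes for RNA polymerase I and its initiation factors, 2 of 7 rose and 3 fell, and the initiation factor genes moved in opposite directions. Taf1d, a subunit of the promoter selectivity factor SL1 (gene ID 75316; GRCm38 chromosome 9, 15306214 to 15316991, plus strand, protein-coding), had 37.4, 39.1 and 42.4 CPM as the lowest, median and highest level in Pfas CKO, against 26.1, 28.1 and 33.3 CPM in control. All Pfas CKO libraries lay above all control libraries. The log2 fold change was 0.45 ± 0.0656 (SE; edgeR adjusted p = 1.98e-05). Rrn3, which brings the polymerase to the promoter in response to growth signals (gene ID 106298; chromosome 16, 13780708 to 13814839, plus strand), had 53.6, 55.0 and 58.7 CPM in Pfas CKO, against 63.4, 66.0 and 67.5 CPM in control. Here all Pfas CKO libraries were lower (log2 fold change -0.25 ± 0.0403; edgeR adjusted p = 4.39e-05). Polr1e, a polymerase subunit (gene ID 64424; chromosome 4, 45018583 to 45036565, plus strand), had 9.42, 10.4 and 13.3 CPM in Pfas CKO, against 14.1, 14.5 and 15.5 CPM in control. It was also lower without overlap (-0.44 ± 0.0812; edgeR adjusted p = 0.00017), with the highest Pfas CKO level, 13.3 CPM, in library 2.

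The other polymerase genes changed less evenly. Polr1b, a large catalytic subunit, fell by 0.23 on the log2 scale, with 30.5 to 38.2 CPM in Pfas CKO and 39.4 to 45.7 CPM in control (edgeR adjusted p = 0.00312). Polr1c, a subunit shared with RNA polymerase III, was higher by 0.37, but the groups overlapped, at 48.2 to 66.6 CPM in Pfas CKO and 35.6 to 51.1 CPM in control. Against control 1 to 3 alone its difference was 0.21 (edgeR adjusted p = 0.0719), and against control 4 to 6 alone 0.56 (0.000268). Polr1a, the largest subunit, did not pass at -0.11 (edgeR adjusted p = 0.0557). It passed without Pfas CKO 2 (-0.14, adjusted p = 0.017) and without control 4 (-0.13, adjusted p = 0.0276). Against control 1 to 3 alone it passed too (-0.16, adjusted p = 0.0203). The same held without Pfas CKO 2 and 4 (adjusted p = 0.0305) and with a minimum mean of 5 CPM (adjusted p = 0.0321). With library totals alone it was at -0.34 (edgeR adjusted p = 2.62e-05) and on log2(TPM + 1) at -0.41 (limma adjusted p = 7.28e-06). Ubtf, the architectural factor of active ribosomal DNA, ranged from 95.4 to 112 CPM in Pfas CKO and from 90.5 to 114 CPM in control and did not pass (-0.014).

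snoRNP proteins sit on small guide RNAs. With TMM scaling the H/ACA class, which guides pseudouridylation, was divided, and the box C/D class, which guides methylation, did not pass. Of the 7 genes, 2 rose, 1 fell and 4 did not pass. Nhp2 (gene ID 52530; chromosome 11, 51619735 to 51623714, plus strand) had 46.3, 51.3 and 56.9 CPM in Pfas CKO, against 36.6, 40.9 and 42.6 CPM in control. The groups did not overlap (0.34 ± 0.058; edgeR adjusted p = 8.11e-05). Nhp2 did not pass with library totals alone (0.11, adjusted p = 0.0987), on log2(TPM + 1) (0.055, limma adjusted p = 0.344) or with the summed macrophage markers as a covariate (0.22, adjusted p = 0.247). Its partner Nop10 (gene ID 66181; chromosome 2, 112261926 to 112263269, plus strand) had 16.6, 18.1 and 24.1 CPM in Pfas CKO, against 14.8, 15.9 and 17.5 CPM in control, with overlap. Its log2 fold change was 0.29 ± 0.0909 (edgeR adjusted p = 0.0113), with the highest levels, 24.1 and 22.8 CPM, in Pfas CKO 2 and 4. Without those libraries the change was 0.13 (adjusted p = 0.0761), and on log2(TPM + 1) it was -0.012.

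Gar1, a further H/ACA core gene (gene ID 68147; chromosome 3, 129824912 to 129831396, minus strand), had 17.8, 19.2 and 24.9 CPM in Pfas CKO, against 22.9, 26.3 and 29.8 CPM in control. It was lower by 0.40 ± 0.0934 on the log2 scale in Pfas CKO (edgeR adjusted p = 0.00135), and only Pfas CKO 2 lay inside the control range. Dkc1, the pseudouridine synthase of the particle, did not pass (-0.06, edgeR adjusted p = 0.363), although it did against control 4 to 6 alone (-0.15, adjusted p = 0.0227). Of the box C/D proteins, the methyltransferase gene Fbl (-0.14) and the scaffold genes Nop56 (-0.041) and Nop58 (0.045) did not pass. With library totals alone they were each called lower, at -0.37, -0.27 and -0.19 (edgeR adjusted p = 0.000566, 2.90e-05 and 0.00161), as were 53.0% of all genes tested. They were also each called lower on log2(TPM + 1). With TMM, Fbl passed without Pfas CKO 2 (-0.19, adjusted p = 0.0292) and against control 1 to 3 alone (-0.26, adjusted p = 0.00517). Nop56 ranged from 135 to 149 CPM in Pfas CKO and from 140 to 153 CPM in control, and Nop58 had 112 to 131 CPM in Pfas CKO and 115 to 125 CPM in control.

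The nucleolar organisers and chaperones number 7 genes, of which 4 rose and 2 fell (median log2 fold change 0.24). Ddx21, an RNA helicase that acts in polymerase I transcription and rRNA processing (gene ID 56200; chromosome 10, 62580251 to 62602281, minus strand), had 299, 320 and 327 CPM in Pfas CKO, against 246, 250 and 259 CPM in control. Gnl3, the GTPase nucleostemin of proliferating and stem cells (gene ID 30877; chromosome 14, 31012433 to 31019152, minus strand), had 130, 155 and 161 CPM in Pfas CKO, against 94.0, 106 and 116 CPM in control. Npm1 (gene ID 18148; chromosome 11, 33152287 to 33163206, minus strand) had 726, 761 and 835 CPM in Pfas CKO, against 572, 612 and 658 CPM in control. None of the 3 overlapped between groups. Their log2 fold changes were 0.34 ± 0.0397, 0.52 ± 0.0686 and 0.31 ± 0.0497, with edgeR adjusted p-values of 1.91e-06, 7.20e-06 and 4.48e-05. Npm1 did not pass with library totals alone (0.082, adjusted p = 0.125) or on log2(TPM + 1) (0.023, limma adjusted p = 0.649), and Ddx21 did not on log2(TPM + 1) (0.053, adjusted p = 0.248). Gnl3 passed on both but not with the macrophage covariate (0.21, adjusted p = 0.266).

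Ncl (gene ID 17975) was likewise above control in all Pfas CKO libraries, with 766 to 826 CPM in Pfas CKO and 640 to 709 CPM in control (0.24, edgeR adjusted p = 0.000124). On log2(TPM + 1) its difference was -0.036 (limma adjusted p = 0.501), so the direction depends on the scale. Mybbp1a, a nucleolar Myb-binding protein that represses transcription, fell by 0.27 on the log2 scale, and Gnl3l, a GTPase related to Gnl3, fell by 0.18. Gnl3l did not pass against control 1 to 3 alone (-0.13, edgeR adjusted p = 0.0842). For Mybbp1a the control sets themselves stood apart, with a difference of -0.37 between control 4 to 6 and control 1 to 3. Against control 4 to 6 alone it did not pass (-0.088, edgeR adjusted p = 0.197). Nolc1, a chaperone of snoRNPs, did not pass (0.05), although it did against control 4 to 6 alone (0.18, adjusted p = 0.0173). Npm1 has processed copies in the genome, and the labels used here do not say how reads were divided among them.

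**Figure D3:**
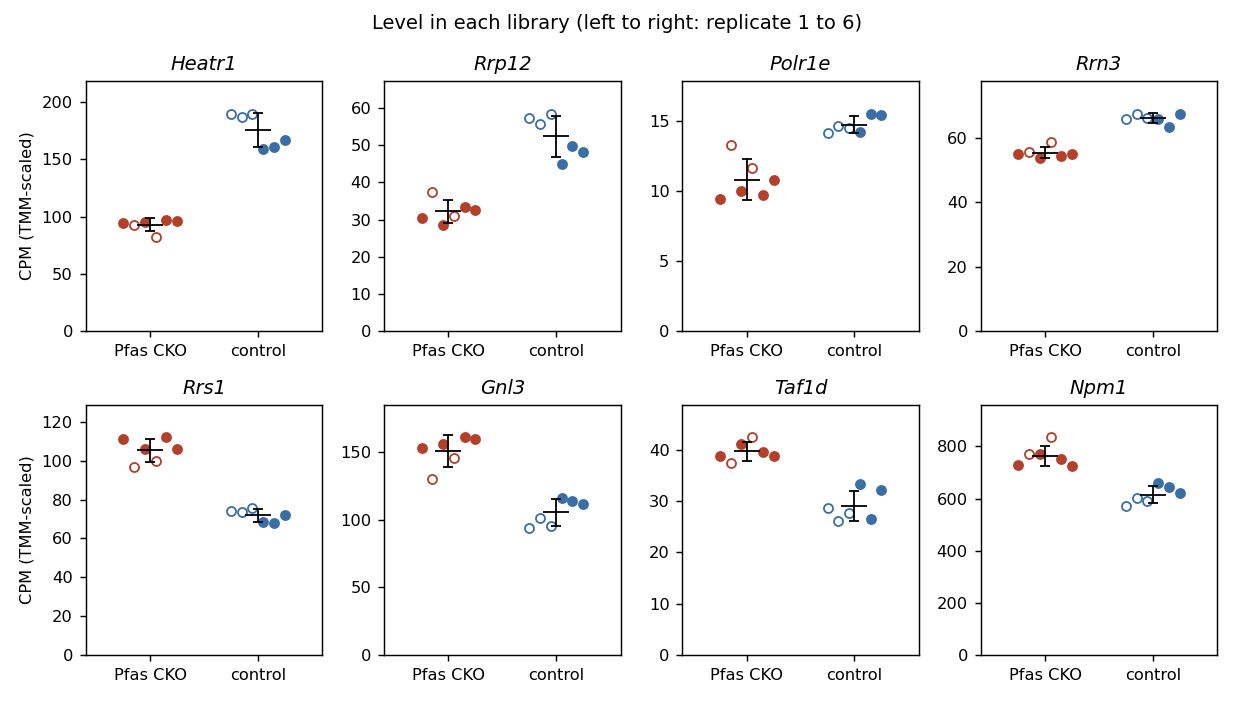
TMM-scaled CPM (y axis) of 8 genes in each library, with Pfas CKO on the left and control on the right. Points run from replicate 1 to 6, and bars show the mean and SD of 6 libraries; open points are Pfas CKO 2 and 4 and control 1 to 3. The groups do not overlap in any of these genes. Heatr1, Rrp12, Polr1e and Rrn3 are lower in Pfas CKO, and Rrs1, Gnl3, Taf1d and Npm1 are higher.

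Small subunit assembly held the deepest falls of the 44 genes. Of its 15 genes, 4 rose, 7 fell and 4 did not pass. Heatr1, the very large scaffold protein that links polymerase I transcription to early processing (gene ID 217995; chromosome 13, 12395027 to 12440289, plus strand), had 82.3, 95.1 and 97.2 CPM in Pfas CKO, against 159, 177 and 190 CPM in control. The Pfas CKO level was 0.530 times the control level, and the lowest control library stood well above the highest Pfas CKO library (log2 fold change -0.92 ± 0.0617; edgeR adjusted p = 4.13e-09). Rrp12, which takes part in subunit maturation and export (gene ID 107094; chromosome 19, 41862851 to 41896173, minus strand), had 28.5, 31.8 and 37.5 CPM in Pfas CKO, against 44.9, 52.8 and 58.5 CPM in control. It was lower without overlap (-0.70 ± 0.0783; edgeR adjusted p = 1.21e-06). The control sets also differed in both genes, with log2 differences of -0.23 and -0.28 for control 4 to 6 over control 1 to 3. Against control 4 to 6 alone, where 32.3% of all genes tested were lower, both were still lower in Pfas CKO, by 0.81 and 0.57.

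Proteins that, like Heatr1, join the precursor while it is being transcribed went other ways. Utp4 (gene ID 21771; chromosome 8, 106893636 to 106923088, plus strand) had 96.1, 104 and 109 CPM in Pfas CKO, against 70.2, 81.0 and 84.1 CPM in control. It was higher without overlap (0.37 ± 0.0539; edgeR adjusted p = 1.71e-05), but did not pass on log2(TPM + 1) (0.088, limma adjusted p = 0.111). Wdr43, of the same subcomplex, was higher by 0.28, at 102 to 132 CPM in Pfas CKO and 95.7 to 105 CPM in control, with Pfas CKO 2 (102 CPM) inside the control range. On log2(TPM + 1) its difference was -0.011. Utp15 (0.11) and Wdr75 (0.01), further members of that subcomplex, did not pass. Utp15 passed without Pfas CKO 2 (0.12, adjusted p = 0.0374) and without control 4 (0.13, adjusted p = 0.0286).

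Among the remaining small subunit genes, Utp20, a late scaffold of the processome, fell by 0.24 on the log2 scale, at 52.3 to 63.2 CPM in Pfas CKO and 64.8 to 70.9 CPM in control, without overlap. Bysl, which acts in late nuclear steps, fell by 0.37, and Noc4l, which works with Nop14, fell by 0.30. Noc4l ranged from 20.4 to 31.0 CPM in Pfas CKO and from 27.9 to 32.8 CPM in control, and Pfas CKO 2, at 31.0 CPM, was the library inside the control range. Bysl, Utp14a and Rrp9 did not pass against control 4 to 6 alone (edgeR adjusted p = 0.135, 0.177 and 0.318), and Noc4l did not against control 1 to 3 alone (0.113). Ltv1, a factor removed during cytoplasmic maturation, was higher by 0.19, without overlap (40.1 to 44.7 CPM in Pfas CKO, 32.2 to 39.7 CPM in control), and Nop14 by 0.10. Both were negative with library totals alone (-0.038 and -0.13), and Ltv1 did not pass against control 4 to 6 alone (0.12, adjusted p = 0.0811). Rrp9, a protein of the U3 snoRNP, and the processome factor Utp14a fell by 0.16 each.

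Some calls in this last group lay close to the threshold and were lost when single libraries were left out. Nop14 (adjusted p = 0.0351) missed the threshold when Pfas CKO 3, 4, 5 or 6 or control 2, 3, 4, 5 or 6 was left out, with adjusted p-values up to 0.077. Rrp9 (adjusted p = 0.037) missed it when Pfas CKO 1, 3, 4, 5 or 6 or control 1, 2 or 3 was left out, with values up to 0.0871. Utp14a (adjusted p = 0.0238) missed it without Pfas CKO 3 (0.0559), Pfas CKO 6 (0.0628) or control 3 (0.051). Pno1 and Tsr1, late cytoplasmic factors, did not pass. For Pno1, at 59.4 to 71.2 CPM in Pfas CKO, the control sets differed by 0.37, and control as a whole ranged from 60.4 to 84.8 CPM. Against control 4 to 6 alone Pno1 was at -0.31 on the log2 scale (edgeR adjusted p = 0.000845).

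Large subunit assembly combined higher Rrs1 and Nip7 with lower members of the PeBoW complex. Of 8 genes, 2 rose and 4 fell. Rrs1, which helps to place the 5S ribonucleoprotein (gene ID 59014; chromosome 1, 9545408 to 9547455, plus strand), had 96.7, 106 and 112 CPM in Pfas CKO, against 67.8, 72.8 and 75.6 CPM in control. Nip7, an rRNA processing factor (gene ID 66164; chromosome 8, 107056877 to 107060931, plus strand), had 68.4, 77.7 and 82.7 CPM in Pfas CKO, against 48.4, 57.4 and 63.3 CPM in control. Neither overlapped between groups (0.55 ± 0.0499 and 0.44 ± 0.0734; edgeR adjusted p = 1.19e-07 and 7.61e-05).

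PeBoW is named for Pes1, Bop1 and Wdr12, which act as a complex in 60S maturation, and each of its genes was lower. Bop1 (gene ID 12181; chromosome 15, 76452989 to 76477277, minus strand) had 43.2, 48.4 and 60.1 CPM in Pfas CKO, against 57.9, 61.7 and 65.9 CPM in control. Pfas CKO 2, at 60.1 CPM, was the library inside the control range (-0.33 ± 0.07; edgeR adjusted p = 0.000652). Pes1 fell by 0.25 and Wdr12 by 0.23 on the log2 scale (edgeR adjusted p = 0.00317 and 0.00638), with overlapping groups. Pes1 did not pass against control 4 to 6 alone (-0.16, adjusted p = 0.0723), and Wdr12 did not against control 1 to 3 alone (-0.12, adjusted p = 0.15). Nop2, an rRNA methyltransferase gene, fell by 0.16. It did not pass without control 2 (-0.13, adjusted p = 0.054) or against control 4 to 6 alone (-0.062, adjusted p = 0.319). Nop16 (-0.083) and Noc3l (-0.026) did not pass. Nop16 passed without Pfas CKO 2 (-0.13, adjusted p = 0.0185) and without Pfas CKO 2 and 4 (-0.14, adjusted p = 0.0148).

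Among the Pfas CKO libraries, the median over the 44 genes of the log2 deviation from the control mean was between -0.076 and 0.015. The SD of that deviation over the genes was 0.285 to 0.35. Pfas CKO 2 had the smallest SD, 0.285, and its level was outside the range of the other Pfas CKO libraries in 68.2% of the 44 genes (21 above and 9 below), against 54.7% of all genes tested. Pfas CKO 4 was outside in 34.1%, against 43.0%.

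**Figure D4:**
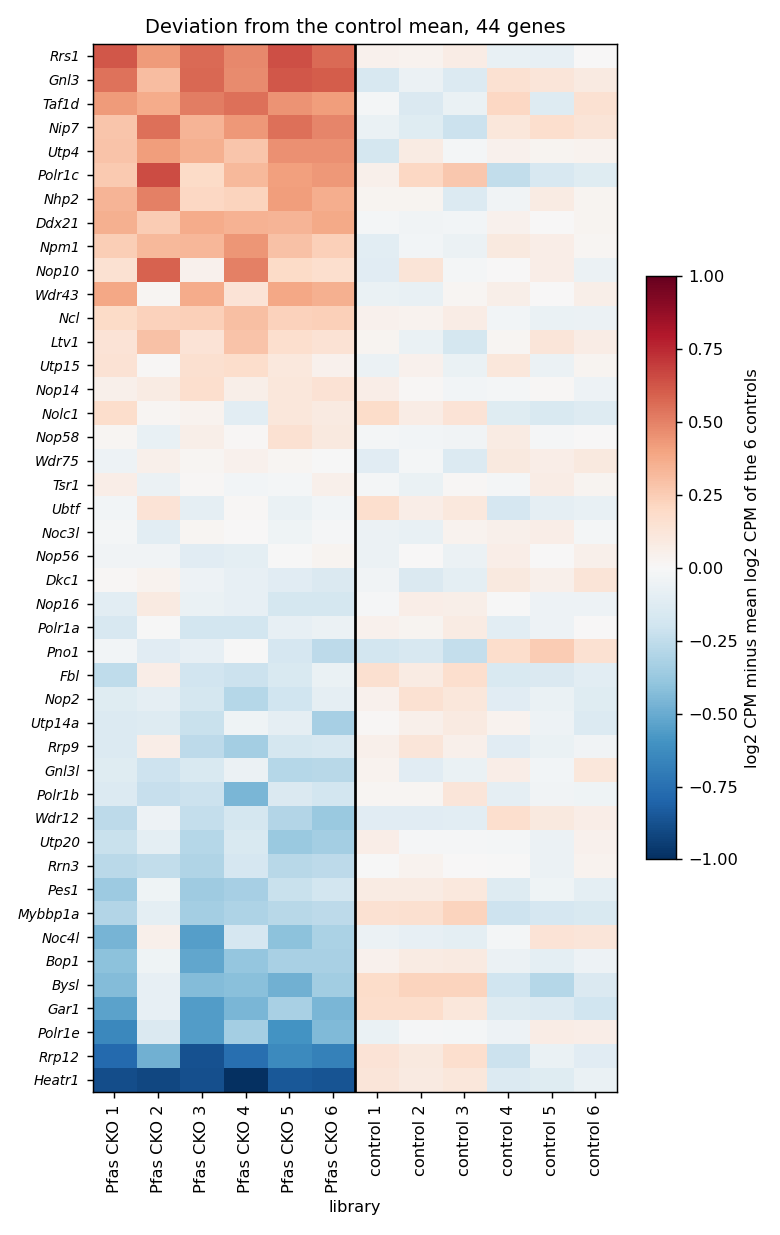
Log2 CPM of each gene minus its mean over the 6 control libraries (colour, cut at 1 either way), with genes in rows from the highest to the lowest fold change and the Pfas CKO libraries left of the line. Rrs1 (top) is above and Heatr1 (bottom) below the control mean in all 6 Pfas CKO libraries, and Pfas CKO 2 is paler for Noc4l, Bop1, Bysl, Gar1 and Pes1.

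Groups did not overlap in 16 of the 44 genes, 10 above and 6 below, or 36.4%, where 47.1% of all genes tested did not overlap. Against the control sets taken separately, 18 genes were called in the same direction with each, 10 higher and 8 lower, and 0 were called in opposite directions. The share of all genes tested called with both was not computed. Against control 4 to 6, 59.1% of the 44 genes and 63.3% of all genes tested were called. Against control 1 to 3 the shares were 63.6% and 66.5%. These comparisons share the Pfas CKO libraries. Control 4 to 6 against control 1 to 3, which have the same genotype, called 8 of the 44 genes higher and 17 lower (56.8%, against 45.5% of 13727 genes tested). In 3 of the 31 genes called between genotypes, the control sets differed by more than the groups did. That share was not computed over all genes tested. With each near-identical set summed to 1 sample (3 from Pfas CKO, 2 from control), 8 genes were higher (Polr1c, Taf1d, Nhp2, Npm1, Gnl3, Utp4, Rrs1 and Nip7) and 2 lower (Heatr1 and Rrp12), or 22.7%, against 37.2% of all genes tested. With the summed macrophage marker level as a covariate, 6 were higher and 3 lower, where 31.1% of all genes tested were called. Since the macrophage sums do not overlap between the groups, that term and genotype cannot be fully told apart. Cd14 makes up much of the difference in that term between the groups, and no other marker sum was fitted. With that term Pfas itself was at -0.17 (edgeR adjusted p = 0.678). In these bulk samples, fewer cells of a type and less RNA per cell cannot be told apart either. Taf1d, Rrs1, Heatr1 and Rrp12 were called in the same direction in all 27 alternatives, and 20.7% of all genes tested were.

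The list was not chosen on transcript length, which is given here as a description. Of 15 genes with a length under 2000 bases, 7 rose and 3 fell, where 28.7% of all genes tested of that length were higher and 36.7% lower. Of 10 genes from 2000 to under 3000 bases, 4 rose and 4 fell, against 28.7% and 39.9% of all genes. Of 19 genes of at least 3000 bases, 3 rose and 10 fell, against 38.5% and 32.0%. The median log2 fold changes in these classes were 0.045, -0.025 and -0.18 for the listed genes and -0.07, -0.084 and 0.05 for all genes tested. Spearman's rho between length and log2 fold change was -0.35 over the 44 genes and 0.10 over 13600 genes, given as a description across genes that share the same libraries. Heatr1, at 6736 bases, and Rrp12, at 4549 bases, are among the longer ones, and Rrs1 has 2002 and Taf1d 1160 bases. The 3 longer genes that were higher were Ncl (5777 bases), Ddx21 (4700 bases) and Wdr43 (3406 bases).

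Further genes of the pathway were described from lists of 142 symbols, of which 139 were found and tested. Of these 29 were higher and 53 lower, 59.0% called, against 68.6% of all genes, with a median of -0.064. Among other RNA polymerase I and SL1 genes, 1 of 11 rose and 4 fell. Taf1b, a further SL1 subunit, had 4.90, 6.35 and 7.10 CPM in Pfas CKO, against 11.2, 11.3 and 13.8 CPM in control (-0.93, edgeR adjusted p = 2.72e-07). Taf1c of the same complex fell by 0.49 and the termination factor gene Ttf1 fell by 0.31. The SL1 subunits therefore differed in direction, with Taf1d higher and Taf1b and Taf1c lower. Among 48 other small subunit factors, 11 rose and 15 fell. Rcl1, whose yeast counterpart acts in processing of the precursor RNA, had a median of 68.9 CPM in Pfas CKO and 34.6 CPM in control. The groups did not overlap (1.02, edgeR adjusted p = 1.17e-09). The kinase gene Riok3 was higher by 0.63, and Aatf, a processome factor, fell by 0.69.

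Among 52 other factors of 60S assembly and export, 11 rose and 22 fell. Sbds, which releases the anti-association factor eIF6 from new 60S subunits and is mutated in Shwachman-Diamond syndrome in people, had 96.8, 107 and 118 CPM in Pfas CKO, against 59.8, 63.0 and 65.3 CPM in control (0.77, edgeR adjusted p = 8.52e-09). Tex10 was higher by 0.41, and the helicase gene Ddx55 fell by 0.84. Of 17 genes of the exosome and other trimming enzymes, 3 rose and 7 fell. The exosome helicase gene Mtrex was higher by 0.52, while the core subunits Exosc4 and Exosc7 fell by 0.68 and 1.03. Of 11 snoRNP assembly factors, 3 rose and 5 fell. Tcof1, the treacle protein that acts with polymerase I and snoRNPs, fell by 0.61, Znhit6 by 0.63 and Coil, of Cajal bodies, by 0.41.

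The 79 cytosolic ribosomal protein genes, the products that this machinery assembles, had 66 higher and 1 lower in Pfas CKO. With TMM 84.8% of them were called, against 68.6% of all genes tested (33.4% higher and 35.2% lower). Their median log2 fold change was 0.40. With library totals alone 35 were higher and 6 lower (median 0.17). On log2(TPM + 1) 28 were higher and 7 lower, and with the macrophage covariate 23 and 0. Many have processed copies in the genome too, so their values carry the same uncertainty. RNA polymerase III genes, which make 5S rRNA and tRNAs, had 1 of 18 higher and 11 lower, with a median of -0.30. That is 66.7% called, near the share of all genes tested. With near-identical libraries summed 0 were higher and 5 lower, and with the macrophage covariate 0 and 2. Polr3b had 16.7, 18.5 and 22.3 CPM in Pfas CKO, against 27.7, 29.5 and 31.2 CPM in control (-0.64, edgeR adjusted p = 9.34e-07), and Brf1 fell by 0.36. These are counts per list, and the lists were not tested against each other.

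Of 20 regulators of rRNA synthesis, 11 were higher and 5 lower, or 7 and 8 with library totals alone. With TMM 80% were called, against 68.6% of all genes tested. Mdm2, the ubiquitin ligase that free ribosomal proteins can inhibit, had 738, 869 and 944 CPM in Pfas CKO, against 331, 359 and 395 CPM in control (1.25, edgeR adjusted p = 1.52e-10). Trp53, which encodes the p53 protein, was higher by 0.63, and Ccnd1, the G1 cyclin, fell by 1.11. Myc, an activator of many of the 44 genes in mammals that was singled out after its values were seen, had 152, 174 and 191 CPM in Pfas CKO, against 137, 141 and 150 CPM in control (0.28, edgeR adjusted p = 0.000364). Myc did not pass with library totals alone (0.048, adjusted p = 0.439), on log2(TPM + 1) (-0.0097, adjusted p = 0.883), with near-identical libraries summed (adjusted p = 0.195) or with the macrophage covariate (0.019, adjusted p = 0.914). Of 33 mitosis and S phase genes, which mark dividing cells, 8 rose and 9 fell (51.5% called). They summed to 1127 to 1142 CPM in Pfas CKO and 964 to 1043 CPM in control. Much of that difference came from Mki67, which averaged 199 CPM in Pfas CKO and 90.7 CPM in control. The median log2 fold change of the 33 genes was 0.027, with changes from -0.78 to 1.26. With library totals alone 4 were higher and 18 lower, and on log2(TPM + 1) 4 and 24. The 3 with the smallest p were all higher, Mki67 by 1.13, Ccne2 by 1.26 and Mcm3 by 0.41. Top2a, the topoisomerase of dividing cells, did not pass (0.067, edgeR adjusted p = 0.407).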

How the data were processed

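Messenger RNA of 12 libraries was selected by its poly(A) tail, as the labels' protocols describe. The deposited table gives, per the file headers, estimated counts that the authors did not normalize, TPM scaled by the authors per library and length, and FPKM, scaled by the authors for library size and length. The FPKM values were used here only to derive transcript lengths. The submitters' processing notes give the build GRCm38 and, for 9 libraries, list Bowtie2, RSEM and DESeq2 with no version or role. The sources used here do not state the annotation, the strand setting or a tool for control 1 to 3. Without the strand, a gene's reads cannot be separated from those of a gene that overlaps it.

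Genes with a blank in a control library (1067) were left out. Estimated counts were rounded, and the test was that of edgeR 4.0.16, run under R 4.3.3 (TMM, filterByExpr, glmQLFit, glmQLFTest, group as the only term), adjusted over 13600 genes at 0.05. SE is the fold change divided by the root of F. Alternatives used limma 3.58.1, DESeq2 1.42.0 and sva 3.50.0. The genes and lists were chosen with earlier results of these data known. In each role, the 3 genes with the smallest p, those moving against the majority and those that did not pass are given, and from other lists the 3 called genes with the smallest p, of which 1 is not reported here. Older symbols were matched by gene ID, and Polr1f, Polr1g and Polr1h were not matched. Gene positions are from GENCODE M21 by symbol. The test was checked on simulated counts, drawn as independent libraries with a common spread for all genes. The simulation held no near-identical sets, so it does not cover that feature of these libraries.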

Additional observations from a re-analysis of the deposited data

Results flagged for a closer look

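A library was picked out where its gap to the nearest of the others in its group, divided by the range of the group of 6, passed Dixon's 95% critical value. This held in 8 of the 88 groups examined (44 genes, each in Pfas CKO and in control). For independent libraries chance gives about 1 in 20. That rate does not apply here, since the libraries form near-identical sets and the 88 groups come from the same libraries. Pfas CKO 2 accounted for 5 of the 8, Pfas CKO 4 for 2 and a control library for 1.

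In Pfas CKO 2, Mybbp1a had 256 CPM, against 216 to 229 CPM in the other Pfas CKO libraries. Bysl had 33.4 CPM there, against 25.3 to 27.7 CPM, Nop16 had 48.2 CPM, against 40.1 to 43.1 CPM, and Bop1 had 60.1 CPM, against 43.2 to 49.5 CPM. Ddx21 was the gene at the low end in that library, at 299 CPM against 318 to 327 CPM. In Pfas CKO 4, Polr1b had 30.5 CPM, against 35.8 to 38.2 CPM in the other Pfas CKO libraries, and Heatr1 had 82.3 CPM, against 93.0 to 97.2 CPM. In control 4, Nop58 had 125 CPM, against 115 to 118 CPM in the other control libraries. Of these genes, Nop16 is the one whose call changed without the library concerned, as given above.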

How the results depend on the processing

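Of 1188 results for single genes under the 27 alternatives, 988 kept their direction and their side of the threshold, 97 kept the direction but lost the call, 42 gained one and 61 changed sign, 29 with a call on either side and 32 with none. Of the 44 genes, 14 higher and 17 lower became 6 and 31 with library totals alone, 4 and 31 on log2(TPM + 1), 4 and 31 on log2(TPM + 0.1), 8 and 2 with near-identical libraries summed (fewer samples), and 6 and 3 with the macrophage term. The 29 higher and 53 lower of the other assembly genes became 8 and 95, 7 and 108, 7 and 108, 11 and 15, and 8 and 4 in that order, and the 4545 and 4785 of all genes 2775 and 7202, 2279 and 7280, 2271 and 7263, 2783 and 2877, and 2134 and 2094. The median of the 44 genes was -0.28, -0.33 and -0.33 on the first 3 of these. The TMM factors were 0.914 to 0.934 in Pfas CKO and 1.07 to 1.10 in control, which is the difference between the first 2 scalings. For the others the cause was not tested.

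Signs changed, with a call on either side, as follows with library totals, log2(TPM + 1) and log2(TPM + 0.1): Nop58 to -0.19, -0.24 and -0.24, Nolc1 to -0.18, -0.23 and -0.23, Utp15 to -0.13, -0.17 and -0.18, Wdr75 to -0.22, -0.26 and -0.27, Nop14 to -0.13, -0.18 and -0.18, Tsr1 to -0.23, -0.28 and -0.28, and Ltv1 to -0.038, -0.10 and -0.10. On the TPM scales alone Nop10 was at -0.012 and -0.013, Ncl at -0.036 and -0.036, and Wdr43 at -0.011 and -0.011. With the macrophage term Utp14a was at 0.09 and Wdr43 at -0.045.

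Sign changes with no call on either side came, with the macrophage term, in Ubtf (0.21), Nop58 (-0.10), Wdr75 (-0.051), Tsr1 (-0.091) and Nop16 (0.081). Without control 1 to 3 they were Ubtf (0.10), Fbl (0.00029), Wdr75 (-0.08) and Tsr1 (-0.025), and without control 4 to 6 Dkc1 (0.037), Nolc1 (-0.076), Pno1 (0.088) and Noc3l (0.0074). The others were Ubtf with RLE scaling (0.00025), DESeq2 (0.00027) and summed libraries (0.034), Tsr1 with summed libraries (-0.014) and a minimum mean of 5 CPM (-0.012), and Wdr75 with that minimum (-0.0058) and without Pfas CKO 2 and 4 (-0.017). Leaving out single libraries gave -0.056 to 0.019 for Ubtf, -0.018 to 0.029 for Wdr75 and -0.011 to 0.018 for Tsr1.

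Leaving out each library in turn gave 13 to 15 of the 44 genes higher and 15 to 20 lower, with a median of -0.072 to -0.033. The same replicate numbers did not deviate together (r between -0.0441 and 0.166, and 3 of 6 libraries correlated best with their own number), so the numbers were not taken as pairs. With the replicate number as a block, 13 were higher and 17 lower, with a median of -0.049, and Nop14 lost its call (adjusted p = 0.076). A level of 3 counts corresponded to 0.157 to 0.161 CPM in Pfas CKO and 0.131 to 0.134 CPM in control, below the level of each of the 44 genes in every library.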
